A study of Capra hircus with 4 samples.

Results

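Nuclear hormone receptors are transcription factors that bind steroids, thyroid hormone, vitamin D, retinoids, fatty acids or sterols, or that have no established ligand. Their values were taken here from RNA sequencing of stem cells cultured from the secondary hair follicles of cashmere goats (Capra hircus). Secondary follicles grow the fine undercoat. The family was taken as 44 named receptors, without the clock receptors NR1D1 and NR1D2, and each was looked up by its gene symbol. Of these, 42 had a row among the 20326 genes measured. RXRA, the retinoid X receptor alpha, and NR1I2, the pregnane X receptor, had no row under those symbols and were not analysed here.

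The libraries came from dorsal skin cells at mid anagen, sampled in October, and at early anagen, sampled in April, which are phases of hair growth. Each phase had 2 libraries, 1 from a female and 1 from a male goat, with no treatment or genetic change named in the labels. What age the animals had and how long the cells were cultured is not given in the sources used here. The labels call the libraries of a phase biological replicates, and their replicate number is the sex. The comparison asks how receptor expression differed between mid anagen and early anagen, with phase, month and season moving together. The cells were cultured, so a receptor's level in the follicle itself was not measured.

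As background, most receptors of this family that form heterodimers pair with a retinoid X receptor, and without ligand many of them bind corepressors such as NCOR1. Ligand binding exchanges corepressors for coactivators such as the NCOA proteins. In skin, the vitamin D receptor is known from human and mouse mutations to be needed for hair follicle cycling. Retinoic acid, thyroid hormone and glucocorticoid receptors are also known to act on keratinocyte growth and the hair cycle.

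All values below are the deposited abundances per gene. Their unit is not stated, and they were read as normalised for gene length because kallisto is named and the library totals are near that of TPM. How many reads lie behind them is not known. Library totals were 933211 and 844960 in the mid female and male and 1068429 and 1186966 in the early female and male libraries. Markers of keratinocytes were abundant, and all 15 of the 15 found were at 1 or more in at least 1 library. Their summed level was 25262 and 26620 in the mid female and male and 47178 and 53417 in the early female and male libraries, a sum made up mostly by KRT5 and KRT14. Of the 15, 5 were lower and 3 (CDH1, EPCAM and JUP) higher in both mid libraries, against 30.9% and 31.5% of all tested genes, and 7 overlapped. Their median log2 fold change was -0.13, and 0.21 with a common total. The 21 dermal papilla and fibroblast markers summed to 361 and 184 in the mid female and male and to 47.7 and 33.7 in the early female and male libraries, where most of the sum was THY1. Of the 15 tested, 14 were higher in both mid libraries, against 31.5% of all tested genes, and THY1 overlapped. Of the 14, 11 reached 1 in mid libraries alone. These 11 entered the test through the mid libraries alone, so their direction was fixed. The median log2 fold change of the 15, which includes them, was 2.84. FN1, FBN1 and COL5A1 were called higher, with limma adjusted p of 0.0245, 0.0323 and 0.0323. FBN1 was 1 of the 11 with a fixed direction, and FN1 and COL5A1 were not. The part that these cell type markers' differences had in the receptor values was not tested. In bulk RNA, fewer cells of a type and less RNA per cell cannot be told apart. Summed levels of the other marker lists were 656 and 715 in the mid female and male and 551 and 611 in the early female and male libraries for 15 bulge stem cell markers. ITGA6, also a keratinocyte marker, made up the greater part of that sum, at 366 and 390 in the mid and 380 and 473 in the early libraries. Of the 11 bulge markers tested, 10 were higher in both mid libraries, against 31.5% of all tested genes, and ITGA6 overlapped. GAS1, 1 of the 10, reached 1 in mid libraries alone, so its direction was fixed. The median log2 fold change of the 11 was 0.98, and LHX2 was called higher (limma adjusted p = 0.0431). The smooth muscle sum was 240 and 539 in the mid and 197 and 463 in the early libraries for 8 markers, mostly from TAGLN. Endothelial markers summed to 12.1 and 12.4 in the mid and 4.61 and 5.07 in the early libraries, mostly from EGFL7 and ERG. Of these 11 markers, 9 were under 1 in all libraries, ERG reached 1 in mid libraries alone, and PECAM1 was lower in both mid libraries. Melanocyte markers summed to 29.0 and 19.5 in the mid and 32.0 and 20.6 in the early libraries, mostly from EDNRB. Immune markers summed to 19.1 and 13.4 in the mid and 10.6 and 8.43 in the early libraries, mostly from CD14 and CD68. Of these 12 markers, 9 were under 1 in all libraries, CD14 was higher in both mid libraries and CD68 overlapped. Among the immune markers PTPRC, MS4A1 and TYROBP were listed at 0 in all 4 libraries, as were the endothelial markers CDH5 and SOX17.

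Receptor expression was dominated by a few genes. RARG, the retinoic acid receptor gamma, had the highest value of the family in all 4 libraries, and NR1H2, the oxysterol receptor LXR beta, the second highest. The 5 receptors with the highest means were RARG, NR1H2, PPARD, VDR and ESRRA. Together they made up 64.8% and 63.2% of the summed receptor value in the mid female and male and 63.8% and 59.1% in the early female and male libraries. The summed value of the 42 receptors was 526 and 552 in the mid female and male and 452 and 407 in the early female and male libraries. Among the 12486 genes tested, RARG lay at percentile 90.6 by mean value, NR1H2 at 86.5 and PPARD at 74.2.

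**Figure D1:**
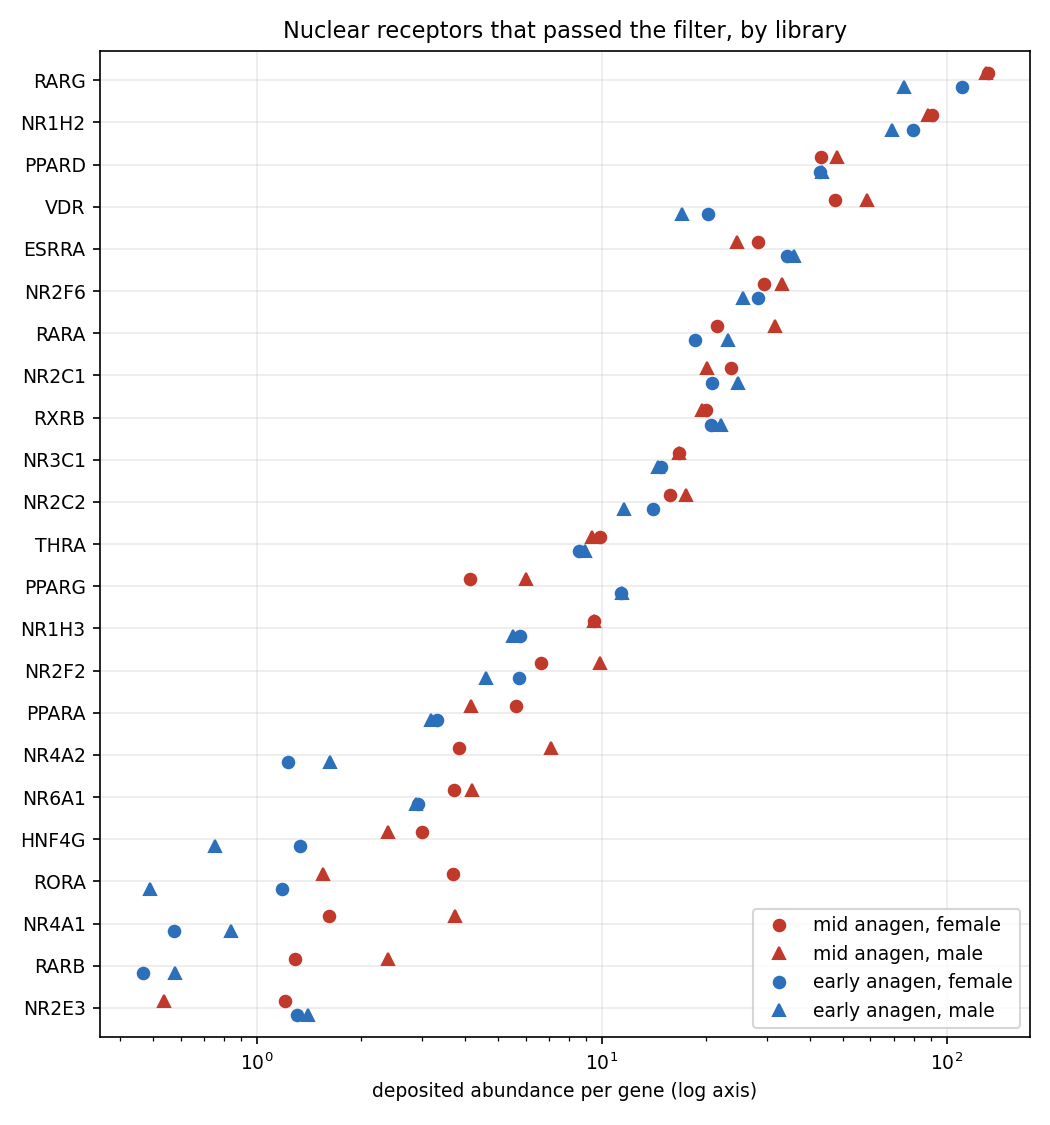
Deposited abundance of the 23 nuclear receptors that passed the filter, on a log axis, with 1 point per library (red, mid anagen; blue, early anagen; circles, female; triangles, male). RARG and NR1H2 lie highest in every library, and VDR and PPARG are the receptors above a mean of 5 whose phases lie farthest apart.

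Genes were tested if 2 or more libraries had a value of 1 or higher, which held for 23 of the 42 receptors and for 61.4% of all genes. Just inside this limit was RARB, whose second highest value was 1.29, and just outside it was THRB, at 0.825. Values were compared as log2(value + 1), a scale that understates the change of low genes, with limma and Benjamini-Hochberg adjustment over all genes. None of the 23 receptors passed an adjusted p of 0.05, against 0.304% of all tested genes, 0.224% higher and 0.0801% lower. At an unadjusted p under 0.05 there were 9 of the 23 receptors, 7 higher and 2 lower at mid anagen, against 27.9% of all tested genes, 13.2% higher and 14.7% lower. Without RARB and NR4A1, which reached the limit of 1 in mid libraries alone, there were 5 higher and 2 lower of 21, against 12.1% and 14.8% of the 12205 genes whose direction the filter did not fix. With sex as a second term, 8 of the 23 receptors were called, against 14.3% of all tested genes. They were VDR, PPARG, NR4A2, NR1H3, HNF4G, RARB, NR4A1 and RORA, and 6 of 21 were called without the pair fixed by the filter, against 13.4% of genes. Of all genes, 28 were called higher and 10 lower. With all libraries brought to the same total there were 565 higher and 83 lower calls, and the median over all tested genes shifted by 0.31 on the log2 scale, to 0.32. In that setting 3 receptors were called, VDR, NR1H3 and NR4A2, all higher, against 5.19% of all tested genes.

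The mid and early values of most tested receptors did not overlap. Both mid libraries lay above both early libraries for 16 of the 23, against 31.5% of all tested genes, and below them for 4, against 30.9%. The median log2 fold change of the 23 was 0.34, against 0.01 over all tested genes, and ran from -1.04 for PPARG to 1.45 for VDR. Without RARB and NR4A1 the counts were 14 above and 4 below of 21, against 30.4% and 31.0% of genes not fixed by the filter, and the median was 0.32. Over all 42 receptors with a row, filter or not, both mid values lay above both early values for 22 and below for 5, against 25.6% and 22.1% of all genes measured. The count above was 20 of 23 after rescaling to a common total, where the share of all tested genes was 57.2%, and 12 of 23 with the trend over gene span removed, where it was 28.2%. Leaving out a library gave 0 called receptors without either early library, 3 without the mid female and 2 without the mid male library. The share of all tested genes called was 0% without either early library, 5.87% without the mid female and 2.96% without the mid male library.

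**Figure D2:**
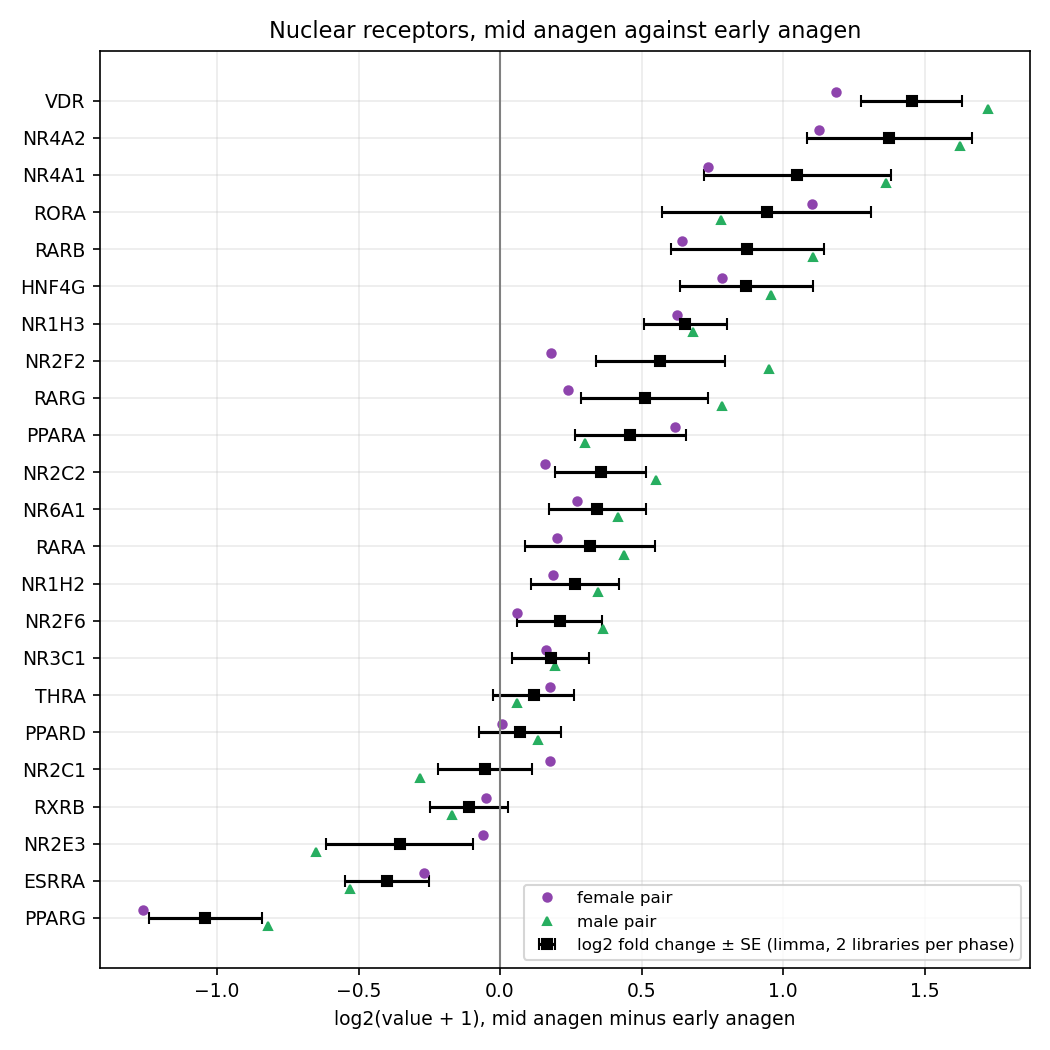
Difference in log2(value + 1) between mid anagen and early anagen for the 23 tested receptors (black squares, log2 fold change with its SE from limma, 2 libraries per phase; purple circles, female pair; green triangles, male pair). Values run from -1.04 for PPARG to 1.45 for VDR, and NR2C1 is the receptor with opposite signs in the pairs.

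VDR, the vitamin D receptor (GeneID 102177594), had the largest fold change of the tested receptors. Its value was 47.5 and 58.6 in the mid female and male and 20.3 and 17.1 in the early female and male libraries. Both mid libraries were above both early libraries. The mean was 53.0 ± 7.89 at mid anagen and 18.7 ± 2.29 at early anagen (SD, n = 2 each). The log2 fold change was 1.45 (SE 0.18, limma adjusted p = 0.0551, unadjusted p = 0.000283). VDR was called without the mid female library (adjusted p = 0.0155) or the mid male library (adjusted p = 0.0353), and over the alternatives its adjusted p ran from 0.0123, with sex as a second term, to 0.301. Within the family it ranked 3 in both mid libraries, 8 and 9 in the early female and male libraries.

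RXRB, a retinoid X receptor that can pair with VDR, was close in all libraries. Its value was 20.0 and 19.5 in the mid female and male and 20.7 and 22.1 in the early female and male libraries. The difference was -0.11 on the log2 scale (SE 0.14, adjusted p = 0.632) and turned positive, 0.22, after rescaling to a common total. RXRG, the gamma form, was listed at 0 in all 4 libraries. A ratio within a library does not depend on how libraries are scaled. VDR over RXRB was 2.37 and 3.00 in the mid female and male and 0.979 and 0.773 in the early female and male libraries. VDR exceeded RXRB in both mid libraries only.

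The 16 listed genes of vitamin D synthesis, breakdown and response included 10 with a row and 5 that passed the filter. Of these 0 were called (limma, 0 at an unadjusted p under 0.05, against 27.9% of all tested genes). TRPV6, a calcium channel, was at 3.47 and 1.10 in the mid female and male and 1.25 and 0.0983 in the early female and male libraries. SPP1, osteopontin, was at 6178 and 15388 in the mid female and male and 6195 and 1287 in the early female and male libraries. For both genes the phases overlapped. KLK6, a serine protease, was at 17.0 and 11.2 in the mid libraries and 78.7 and 20.7 in the early female and male libraries, and G0S2, a lipase inhibitor, at 78.1 and 77.2 in the mid and 101.6 and 83.9 in the early libraries. Both were lower in the mid libraries, but the difference in G0S2, -0.25, turned to 0.09 with a common total. HR, hairless, a corepressor known to bind VDR and to be needed for hair cycling, is named after its values were seen. It was at 197 and 156 in the mid female and male and 174 and 154 in the early female and male libraries, and the phases overlapped.

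The retinoic acid receptors bind all-trans retinoic acid, and RARG is known as the main form in epidermis. RARG (GeneID 102178513) was at 131 and 130 in the mid female and male and 111 and 74.9 in the early female and male libraries. Both mid values were above both early values, and the early libraries differed more from each other than the mid libraries did. The log2 fold change was 0.51 (SE 0.22, adjusted p = 0.206). RARA was at 21.6 and 31.7 in the mid female and male and 18.6 and 23.2 in the early female and male libraries, and the phases overlapped. RARB (GeneID 102171952), a form known to be induced by retinoic acid, was at 1.29 and 2.39 in the mid female and male and 0.465 and 0.577 in the early female and male libraries. Its log2 fold change was 0.87 (SE 0.27, limma adjusted p = 0.121, unadjusted p = 0.0200). RARB entered the test through the mid libraries alone, so its direction was fixed. RARG over RARA was 6.08 and 4.09 in the mid and 5.96 and 3.23 in the early female and male libraries, so the ratio overlapped between phases.

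Of 23 listed genes of retinoid transport, metabolism and response, 20 had a row and 13 passed the filter. None was called, while 3 were higher and 2 lower at an unadjusted p under 0.05, against 13.2% and 14.7% of all tested genes. DHRS9, a dehydrogenase/reductase and 1 of the 2 lower, reached 1 in early libraries alone, so its direction was fixed by the filter. RBP4, the secreted retinol carrier, was at 11.6 and 9.77 in the mid female and male and 2.10 and 0.922 in the early female and male libraries (log2 fold change 2.25, SE 0.27, limma adjusted p = 0.0551). TGM2, a transglutaminase known as a retinoic acid target, was at 1.62 and 1.84 in the mid and 0.0957 and 0.144 in the early libraries, and reached the limit of 1 in the mid libraries alone. CRABP2, which carries retinoic acid to the retinoic acid receptors, was at 1169 and 1067 in the mid female and male and 596 and 365 in the early female and male libraries (adjusted p = 0.0851). FABP5, a fatty acid binding protein known to carry retinoic acid to PPARD, was at 626 and 592 in the mid and 1133 and 1126 in the early female and male libraries (adjusted p = 0.0851). CRABP2 over FABP5, a ratio chosen after the values were seen, was 1.87 and 1.80 in the mid female and male and 0.526 and 0.324 in the early female and male libraries. CRABP2 was therefore the more abundant of the pair in both mid libraries and FABP5 in both early libraries.

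**Figure D3:**
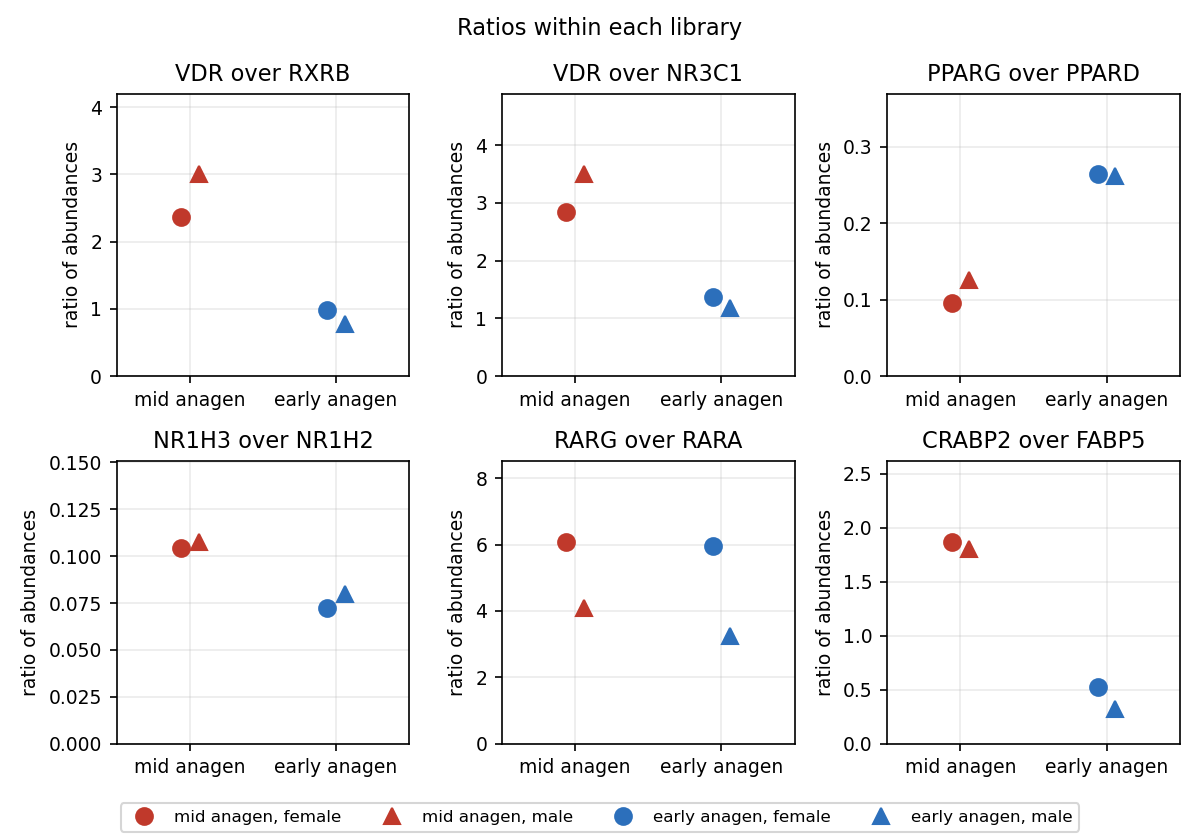
Ratios of deposited abundances within each library, which do not depend on scaling between libraries (red, mid anagen; blue, early anagen; circles, female; triangles, male; linear axes from 0). VDR over RXRB, VDR over NR3C1, NR1H3 over NR1H2 and CRABP2 over FABP5 are higher in both mid libraries, PPARG over PPARD is lower in both, and RARG over RARA overlaps.

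None of these ratios was tested. With 2 libraries against 2, a two-sided exact permutation test cannot give a p below 0.333.

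The thyroid hormone receptors were represented by the alpha form. THRA was at 9.84 and 9.34 in the mid female and male and 8.58 and 8.93 in the early female and male libraries. These groups did not overlap, but the log2 fold change was 0.12 (SE 0.14, adjusted p = 0.619). THRB stayed under 1 in every library, with 0.825 and 0.998 in the mid female and male and 0.585 and 0.240 in the early female and male libraries. All 13 listed genes of thyroid hormone transport, activation and response had a row and 9 passed the filter. None was called, and 4 were higher and 0 lower at an unadjusted p under 0.05, against 13.2% and 14.7% of all tested genes. DIO3, the deiodinase that inactivates thyroid hormone, was at 4.81 and 3.39 in the mid female and male and 1.26 and 0.393 in the early female and male libraries (log2 fold change 1.51, SE 0.31, limma adjusted p = 0.0771). KLF9, a transcription factor known to respond to thyroid hormone and glucocorticoids, was at 5.57 and 5.31 in the mid and 2.04 and 0.974 in the early libraries (adjusted p = 0.0726). MED13, a Mediator subunit, was at 15.9 and 15.0 in the mid and 11.3 and 11.2 in the early libraries. For each of these 3 genes both mid values were above both early values.

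The peroxisome proliferator-activated receptors bind fatty acids and their derivatives, and PPARG is known for its role in fat cells and sebocytes. PPARG (GeneID 100861309) had the lowest fold change of the tested receptors. It was at 4.13 and 6.02 in the mid female and male and 11.3 and 11.4 in the early female and male libraries. Both mid values were below both early values. Its mean was 5.08 ± 1.34 at mid anagen and 11.4 ± 0.0529 at early anagen (SD, n = 2 each). The log2 fold change was -1.04 (SE 0.20, limma adjusted p = 0.0745, unadjusted p = 0.00258), and -0.74 after rescaling to a common total. It was called with sex as a second term (adjusted p = 0.0211), where 14.3% of all tested genes were called. With a common total it was not called (adjusted p = 0.0961). The 15 adipocyte and sebocyte markers found summed to 26.0 and 22.9 in the mid female and male and 25.7 and 22.1 in the early female and male libraries. Most of that sum was CEBPA, at 17.0 and 12.1 in the mid and 18.7 and 15.6 in the early libraries. Of the 15, 9 were under 1 in all libraries, with LEP listed at 0 in all 4. Of the 4 tested, CIDEA and FADS2 were higher in both mid libraries, against 31.5% of all tested genes, and CEBPA and PLIN1 overlapped. CIDEA reached the filter limit in mid libraries alone, so its direction was fixed.

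PPARD, the form known as the most abundant in keratinocytes, was at 43.0 and 47.9 in the mid female and male and 42.8 and 43.6 in the early female and male libraries. The phases overlapped, and the log2 fold change was 0.07 (SE 0.14, adjusted p = 0.782), which turned to -0.11 with the span trend removed. PPARA was at 5.64 and 4.15 in the mid and 3.33 and 3.18 in the early female and male libraries (log2 fold change 0.46, SE 0.20, adjusted p = 0.198). PPARG over PPARD was 0.0960 and 0.126 in the mid female and male and 0.264 and 0.262 in the early female and male libraries. Of the 20 listed PPAR partners and targets, 18 had a row, 13 passed the filter and 0 were called. At an unadjusted p under 0.05, 2 were higher and 2 lower, against 13.2% and 14.7% of all tested genes. FABP3, a fatty acid binding protein, was at 8.31 and 6.85 in the mid female and male and 14.5 and 19.5 in the early female and male libraries (log2 fold change -1.06, SE 0.20, limma adjusted p = 0.0741). CPT1A, which takes long-chain fatty acids to the mitochondria, was at 20.1 and 22.1 in the mid and 14.0 and 16.7 in the early libraries. CIDEA, a lipid droplet protein that reached 1 in the mid libraries alone, was at 1.63 and 2.22 in the mid and 0.699 and 0.968 in the early libraries. The 2 fatty acid binding proteins were thus lower in both mid libraries, and CPT1A and CIDEA higher.

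The oxysterol receptors NR1H2 and NR1H3, LXR beta and LXR alpha, regulate cholesterol export and lipid synthesis. NR1H3 (GeneID 100860906) was at 9.45 and 9.48 in the mid female and male and 5.77 and 5.53 in the early female and male libraries. Libraries of the same phase nearly coincided and the phases did not overlap. The log2 fold change was 0.65 (SE 0.15, limma adjusted p = 0.0834, unadjusted p = 0.00524). NR1H2 was at 90.7 and 88.0 in the mid and 79.6 and 69.1 in the early female and male libraries (log2 fold change 0.27, SE 0.16, adjusted p = 0.316). NR1H3 over NR1H2 was 0.104 and 0.108 in the mid and 0.0725 and 0.0800 in the early female and male libraries, so LXR beta was the more abundant form in all 4 libraries. NR1H4, the bile acid receptor, was listed at 0 in all libraries, and NR1I3, the constitutive androstane receptor, reached 1 only in the mid female library, at 1.12.

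Of the 16 listed targets of these sterol and bile acid receptors, 15 had a row and 10 passed the filter. None was called, with 2 higher and 1 lower at an unadjusted p under 0.05, against 13.2% and 14.7% of all tested genes. APOE, apolipoprotein E, was at 15.3 and 10.7 in the mid female and male and 4.26 and 2.49 in the early female and male libraries (log2 fold change 1.69, SE 0.27, limma adjusted p = 0.0711). MYLIP, a ubiquitin ligase for the LDL receptor, was at 4.87 and 4.58 in the mid and 1.70 and 1.10 in the early libraries (adjusted p = 0.0717). PLTP, a phospholipid transfer protein, was at 19.2 and 28.3 in the mid and 45.0 and 43.0 in the early libraries (adjusted p = 0.0861), and LPCAT3, a phospholipid remodelling enzyme, at 31.6 and 45.9 in the mid and 49.1 and 61.7 in the early libraries. These known LXR targets were therefore not all on the same side, with APOE and MYLIP higher and PLTP and LPCAT3 lower in both mid libraries.

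Among the retinoic acid related orphan receptors, RORA (GeneID 100861305), known for roles in the clock and in metabolism, had its highest value in the mid female and its lowest in the early male library. It was at 3.69 and 1.55 in the mid female and male and 1.18 and 0.488 in the early female and male libraries. The log2 fold change between phases was 0.94 (SE 0.37, limma adjusted p = 0.174, unadjusted p = 0.0466), and 0.45 with the span trend removed and 0.50 without the mid female library. The sum of the fibroblast markers was also higher in the mid female than in the mid male library, at 361 against 184, but COL5A1, TWIST2 and THY1 were lower there. In the early libraries single markers went either way, with COL1A1 and FN1 lower and COL5A1 and LUM higher in the female. The part of the fibroblast markers in the RORA values was not tested. RORB was at or near 0, with a highest value of 0.0169.

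Of the 5 steroid receptors in the family list, the glucocorticoid receptor alone passed the filter. NR3C1 was at 16.7 and 16.8 in the mid female and male and 14.8 and 14.5 in the early female and male libraries. The groups did not overlap, but the log2 fold change was 0.18 (SE 0.14, adjusted p = 0.425) and turned to -0.05 with the span trend removed. VDR over NR3C1 was 2.85 and 3.50 in the mid and 1.37 and 1.18 in the early female and male libraries. ESR1, ESR2 and PGR, the estrogen and progesterone receptors, and NR3C2, the mineralocorticoid receptor, had highest values of 0.225, 0.126, 0.0107 and 0.177. Of 21 listed genes of glucocorticoid and sex steroid metabolism and response, 19 had a row and 12 passed the filter, with 0 called. At an unadjusted p under 0.05, where 13.2% of all tested genes were higher and 14.7% lower, 0 of the 12 were lower and 3 higher. Besides KLF9 they were PER1, a clock gene induced by glucocorticoids, at 14.3 and 19.5 in the mid and 8.94 and 7.71 in the early female and male libraries (log2 fold change 0.93, SE 0.20, limma adjusted p = 0.0785), and HSD17B11, a steroid dehydrogenase, at 10.1 and 7.67 in the mid and 6.43 and 5.62 in the early libraries. SRD5A1, a steroid reductase, was at 15.3 and 17.8 in the mid and 19.0 and 23.2 in the early libraries.

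The 12 listed steroid receptor chaperones, which hold unliganded steroid receptors ready to bind hormone, had 11 members with a row, all of them tested. None was called, and 0 were higher and 2 lower at an unadjusted p under 0.05, against 13.2% and 14.7% of all tested genes. Their median log2 fold change was -0.40, against 0.01 over all tested genes, and -0.06 after rescaling to a common total. FKBP4, a cochaperone, was at 143 and 162 in the mid female and male and 230 and 321 in the early female and male libraries (log2 fold change -0.83, SE 0.22, limma adjusted p = 0.0980). PTGES3, the cochaperone p23, was at 233 and 208 in the mid and 340 and 395 in the early libraries (adjusted p = 0.0944). HSP90AB1 was at 666 and 725 in the mid and 885 and 1369 in the early libraries. PPID, a cyclophilin, was at 78.8 and 63.7 in the mid and 87.0 and 111 in the early libraries. All 4 were lower in both mid libraries than in both early libraries.

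ESRRA (GeneID 102182570), the estrogen related receptor alpha, a regulator of mitochondrial genes without a known natural steroid ligand, had lower values in both mid libraries. It was at 28.4 and 24.7 in the mid female and male and 34.4 and 36.1 in the early female and male libraries. Both mid values lay below both early values, a difference of -0.40 on the log2 scale (SE 0.15, limma adjusted p = 0.161, unadjusted p = 0.0397). After rescaling to a common total it was -0.07, so the difference was of the size of that shift. In the RefSeq table the ESRRA span overlaps that of TRMT112, a methyltransferase subunit, which was at 2.08 and 1.20 in the mid and 3.06 and 3.17 in the early libraries. ESRRB and ESRRG had highest values of 0.0345 and 0.0282.

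The NR2 orphan receptors had no member with an unadjusted p under 0.05. NR2F6 was at 29.5 and 33.2 in the mid female and male and 28.3 and 25.6 in the early female and male libraries. NR2C2 was at 15.8 and 17.5 in the mid and 14.0 and 11.6 in the early libraries. NR2F2, the factor COUP-TFII known from vein and mesenchyme development, was at 6.66 and 9.84 in the mid and 5.76 and 4.61 in the early libraries. These 3 receptors were higher in both mid libraries, with log2 fold changes of 0.21 (SE 0.15, adjusted p = 0.394), 0.36 (SE 0.16, adjusted p = 0.218) and 0.57 (SE 0.23, adjusted p = 0.180) in that order. NR2F2 differed more in the male pair, by 0.95, than in the female pair, by 0.18. NR2C1 was at 23.6 and 20.2 in the mid and 20.8 and 24.8 in the early female and male libraries, which overlapped. NR2E3, known from photoreceptors, was at 1.21 and 0.535 in the mid and 1.30 and 1.41 in the early libraries (log2 fold change -0.35, SE 0.26, adjusted p = 0.407). NR2E1 and NR2F1 stayed under the filter, with highest values of 0.234 and 0.232.

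The NR4A receptors are immediate early genes whose transcripts appear rapidly after many stimuli. NR4A2 (GeneID 102169808) was at 3.86 and 7.11 in the mid female and male and 1.23 and 1.63 in the early female and male libraries. Both mid values were above both early values, a difference of 1.38 on the log2 scale (SE 0.29, limma adjusted p = 0.0785, unadjusted p = 0.00410). NR4A1 (GeneID 102185438) was at 1.62 and 3.74 in the mid and 0.572 and 0.842 in the early female and male libraries, a difference of 1.05 on the log2 scale (SE 0.33, limma adjusted p = 0.126, unadjusted p = 0.0219). NR4A1 entered the test through the mid libraries alone, so its direction was fixed. NR4A2 was called with sex as a second term (adjusted p = 0.0153), where 14.3% of all tested genes were called. It was also called with a common total (adjusted p = 0.0472), where 5.19% of them were. NR4A2 over NR4A1 was 2.38 and 1.90 in the mid and 2.14 and 1.94 in the early female and male libraries, so this ratio overlapped. NR4A3 was at 0.373 and 0.427 in the mid and 0.299 and 0.860 in the early female and male libraries, under the filter and with overlapping phases.

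Among the remaining receptors, HNF4G (GeneID 102175222), known from gut and kidney epithelium, was at 3.01 and 2.40 in the mid female and male and 1.33 and 0.754 in the early female and male libraries. Both mid values were above both early values (log2 fold change 0.87, SE 0.24, limma adjusted p = 0.1004, unadjusted p = 0.0121). HNF4A, its liver paralogue, stayed at or under 0.279. NR6A1, the germ cell nuclear factor, was at 3.73 and 4.19 in the mid and 2.92 and 2.89 in the early libraries (log2 fold change 0.34, SE 0.17, adjusted p = 0.250). NR5A1, NR5A2, NR0B1 and NR0B2, which are known from adrenal, gonad and liver, had highest values of 0.124, 0.0707, 0.0210 and 0.0314.

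Coregulators are recruited by receptors to open or close chromatin. Of 20 listed coactivators, 19 had a row, 18 passed the filter and 0 were called. At an unadjusted p under 0.05, 6 were higher and 1 lower, against 13.2% and 14.7% of all tested genes. The median log2 fold change of the 18 was 0.08, against 0.01 over all tested genes. NCOA7 was at 9.06 and 7.63 in the mid female and male and 3.85 and 3.64 in the early female and male libraries (log2 fold change 0.97, SE 0.17, limma adjusted p = 0.0724). NCOA1, the steroid receptor coactivator SRC-1, was at 15.9 and 15.6 in the mid and 9.50 and 8.33 in the early libraries (adjusted p = 0.0753). EP300, a histone acetyltransferase, was at 27.1 and 30.5 in the mid and 21.0 and 18.1 in the early libraries. Those 3 were higher in both mid libraries. PRMT1, an arginine methyltransferase with many other substrates, was at 150 and 165 in the mid and 321 and 443 in the early female and male libraries (log2 fold change -1.26, SE 0.22, adjusted p = 0.0724), and was lower in both.

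All 14 listed corepressors had a row and 13 passed the filter, with 0 called. At an unadjusted p under 0.05, 3 were higher and 0 lower, against 13.2% and 14.7% of all tested genes. The median log2 fold change of the 13 was 0.22, against 0.01 over all tested genes. NRIP1, known as RIP140, was at 33.6 and 37.6 in the mid female and male and 22.5 and 19.8 in the early female and male libraries (log2 fold change 0.72, SE 0.15, limma adjusted p = 0.0783). TBL1X, a subunit of the NCOR complex, was at 47.3 and 48.6 in the mid and 35.0 and 31.9 in the early libraries, and NSD1, a histone methyltransferase, at 35.2 and 35.0 in the mid and 27.2 and 27.7 in the early libraries. HDAC3, the deacetylase of that complex, was at 40.2 and 41.2 in the mid and 46.3 and 52.9 in the early libraries. Its difference of -0.28 turned to 0.06 after rescaling to a common total.

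**Figure D4:**
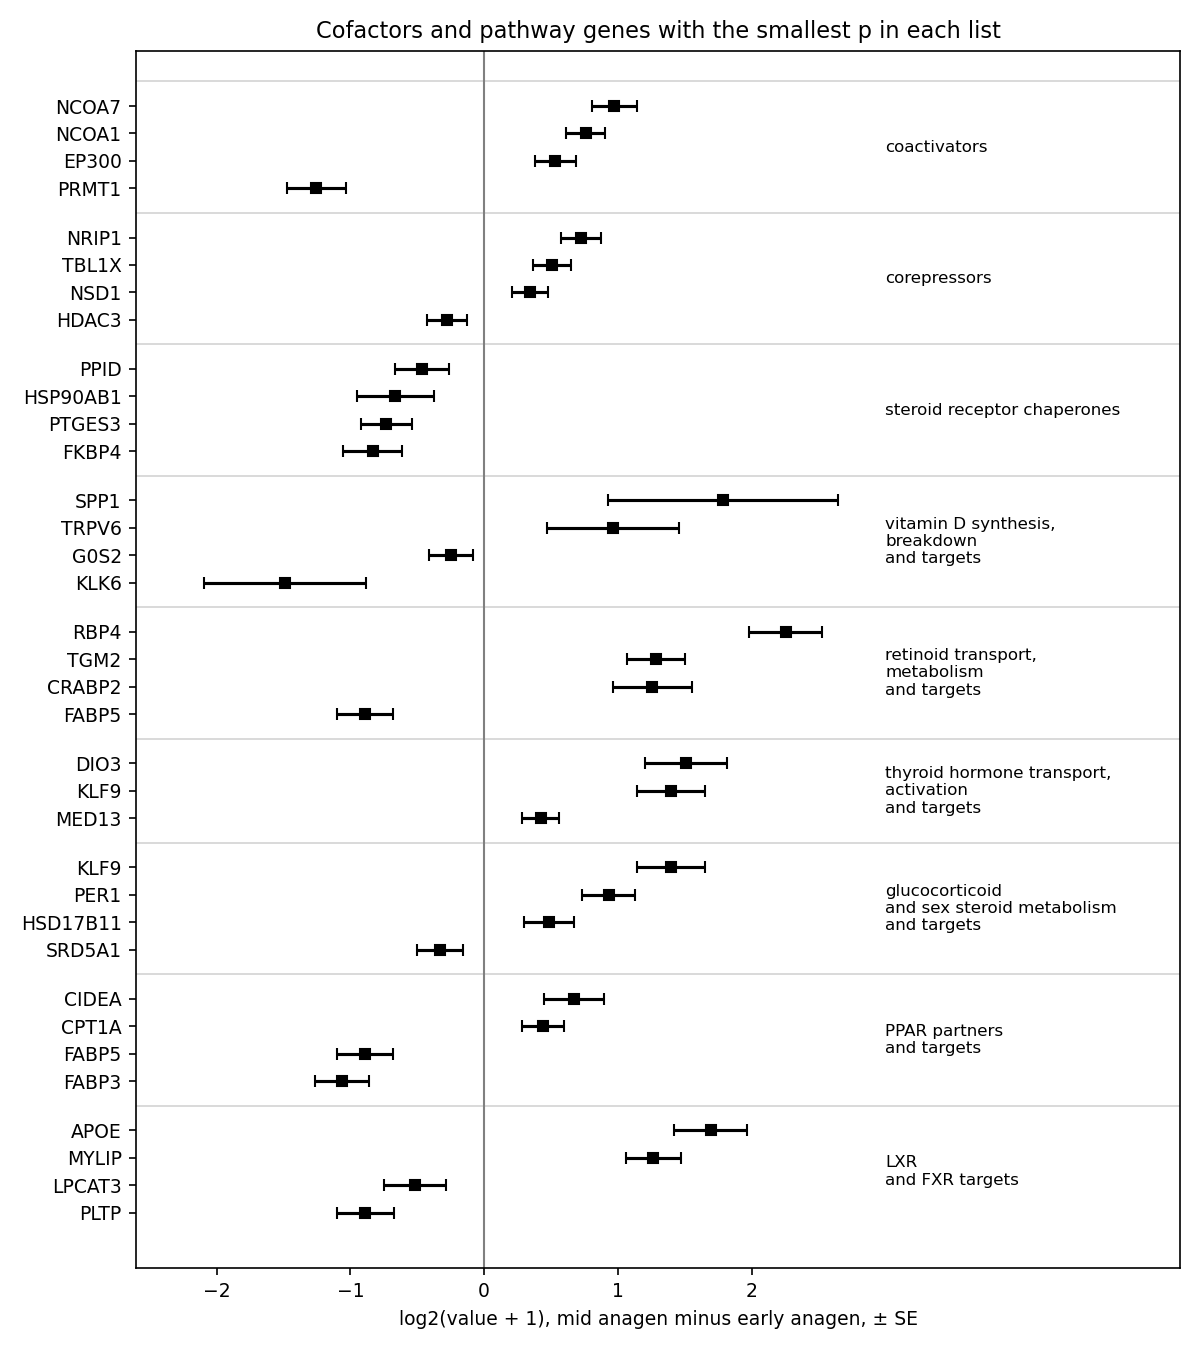
Difference in log2(value + 1) between mid anagen and early anagen, with its SE from limma, for up to 4 genes with the smallest p in each of 9 lists of cofactors and pathway genes. The 4 chaperones lie left of 0 and the 3 thyroid hormone genes plotted right of it, and none of the genes plotted passed an adjusted p of 0.05.

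Male and female libraries were compared in a fit with phase and sex as terms. None of the 23 receptors was called (limma, lowest adjusted p = 0.262), against 0.144% of all tested genes. At an unadjusted p under 0.05 there were 3, against 11.0% of all tested genes. RORA was lower in male libraries, with a log2 difference of -0.71 (SE 0.20, adjusted p = 0.262). RARA was higher in male libraries by 0.42 (SE 0.15, adjusted p = 0.387) and NR4A2 by 0.49 (SE 0.20, adjusted p = 0.444). Of the 23 receptors, 6 were higher in the male library in both phases, 5 were lower in both and 12 had opposite signs in the phases.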

How the data were processed

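Deposited values are a signal, an abundance per gene, with 1 value per gene and library. Tools listed are kallisto 0.46.1 and sleuth 0.30.0, per the submitters' processing notes. Which genome build, annotation, scaling and gene-level summary were used is not given in the sources used here. Read depth is unknown, and no counting error can be stated. No pair of libraries shared equal values above 0 (0 genes).

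The scale used was log2(value + 1), and fits were made by limma 3.58.1 with an intensity trend under R 4.3.3. The filter kept 12486 genes that reached 1 in 2 or more of the 4 libraries. Mid anagen was compared with early anagen with phase as the only term, and male with female with phase and sex as terms. Adjustment was by Benjamini-Hochberg over all tested genes, threshold 0.05. The phase test was checked on 16 simulations with independent errors, spreads shuffled across genes and 200 changed genes each. Changes were given only to genes of higher mean. The check did not cover receptors of low value or the sex comparison. Differences within each sex are called the female and the male pair. The receptors, the 9 lists of cofactors and pathway genes, the 8 lists of cell type markers and the ratios were chosen with earlier results of these data known. The rule for named genes covers every receptor, with fold change, SE and p for those called or with an unadjusted p under 0.05, and up to 4 genes per list with the smallest p, of which 1 is not reported here. Statistics of other receptors, and the genes HR and DHRS9, were added after their values were seen. Gene spans and overlaps came from the RefSeq table of the goat ARS1.2 assembly, where all 42 receptor identifiers were found. Besides ESRRA, the tested receptors RARA, PPARA, NR2C1 and NR6A1 overlap a noncoding gene or pseudogene there, and whether strand was used is not given in the sources used here. Alternatives were other pseudocounts and filters, a common total, a constant prior variance, leaving out each library and a replicate block. Removing the trend over gene span was chosen after seeing the data.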

Additional observations from a re-analysis of the deposited data

Results flagged for a closer look

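NR2C1, the testicular receptor TR2, was the tested receptor whose phase difference had opposite signs in the sexes. On the log2(value + 1) scale it was higher at mid anagen by 0.18 in the female pair and lower in the male pair, with a difference of -0.28. The difference between the pairs was not tested, since each pair holds 1 library per phase.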

How the results depend on the processing

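The 38 genes called between phases became 18 with a pseudocount of 0.1, 0 without a filter (3843 at an unadjusted p under 0.05) and 648 with a common total. They ranged from 0 (without either early library, with 2897 at an unadjusted p under 0.05 without the early female and 1445 without the early male) to 733 (without the mid female library; 370 without the mid male) when a library was left out. The receptors called, 0 of 23, became 1 of 15 with a filter of 5, where 0.557% of the genes passing it were called. With a common total they became 3 of 23, against 5.19% of all tested genes. Where a library was left out, the phase with a lone library is assumed to vary like the other. With the replicate block, the replicate number being the sex, 1782 genes, 14.3% of those tested, and 8 of the 23 receptors were called. These receptors were VDR, PPARG, NR4A2, NR1H3, HNF4G, RARB, NR4A1 and RORA. Without RARB and NR4A1, whose direction the filter fixed, 6 of 21 were called, against 13.4% of genes. Same-numbered libraries deviated together across genes (r = 0.292), but no label says that their animals are related, so the number was not taken as a pairing. The number is also the sex, which the labels give. The main fit had phase as its only term and so leaves differences between the sexes in its residual spread. The median receptor log2 fold change, 0.34, became 0.13 without a filter and 0.65 with a common total. The receptors with both mid values above both early values, 16, became 9 of 15 with a filter of 5, where the share of all genes passing it was 30.2%. The 18 genes called between male and female became 46 and 48 with pseudocounts of 0.1 and 5, 0 without a filter (1504 at an unadjusted p under 0.05), 101 with a filter of 5, 11 with a mean of at least 1, 396 with a common total, 9 with a constant prior variance and 1 with sex as the only term. Leaving out a library gives no test of sex with phase as a term. The cause of these changes was not tested, except that other filters test fewer or more genes.

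Directions turned with a common total for RXRB (0.22), NR2C1 (0.28), HDAC3 (0.0597) and G0S2 (0.0915), and with the span trend removed for PPARD (-0.11), NR3C1 (-0.0463) and G0S2 (0.22). With a library left out, NR2C1 ranged from -0.176 (without the early female) to 0.0701 (without the early male library; 0.05 without the mid male), and PPARD from -0.00500 (without the mid male) to 0.147 (without the mid female library). The other receptors named kept their direction in each alternative run. Receptors that did not reach 1 in at least 2 libraries were left out of the main fit by the filter. With 2 libraries per phase and an unknown read depth, whether differences in them could be detected was not assessed.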

Other observations

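The 19 receptors with a row that did not pass the filter had highest values between 0 and 1.12. In 6 of them both mid values lay above both early values, and in 1 below, against 16.3% and 8.14% of all genes that did not pass the filter. Among these low receptors, NR3C2 was at 0.149 and 0.177 in the mid female and male and 0.0675 and 0.0336 in the early female and male libraries. ESR1 was at 0.174 and 0.225 in the mid and 0.135 and 0.124 in the early libraries. NR5A2 was the receptor with lower values in both mid libraries, at 0.0369 and 0.0438, against 0.0707 and 0.0649 in the early female and male libraries. These values lie far below the filter and carry no test.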
